A study of Mus musculus with 6 samples.

Results

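The genes that decide whether a cell undergoes apoptosis, namely the BCL2 family, the caspases with their cofactors and inhibitors, and p53 with its regulators and targets, were compared between HDAC11-/- and WT Tregs. The group was a list of 44 gene symbols, split into pro-survival genes, pro-death genes, caspases, p53 and its regulators, and p53 targets. A member was measured where the annotation of the array named it as the single gene of a probe set. This gave 41 members, with 86 probe sets, of 12393 genes with such a probe set. Bax, Ripk1 and Trp53 were not analysed here, so p53 itself is represented by its regulators and targets only.

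The mitochondrial pathway of apoptosis is set by the balance between BCL2 proteins of opposite action. Pro-survival members such as Bcl2 and Mcl1 hold the pore-forming effectors in check, BH3-only members release that block after stress, and the effectors then let cytochrome c out of mitochondria into the cytosol, where it assembles Apaf1 and caspase-9 into the apoptosome. The p53 protein, which Mdm2 and Mdm4 restrain, induces several BH3-only genes along with genes of growth arrest and DNA repair. In Tregs, Mcl1 is known to be needed for survival, and Bim, the product of Bcl2l11, limits their number.

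Tregs were CD4+CD25+ cells separated with magnetic beads. The HDAC11-/- group came from fl-HDAC11/Foxp3cre mice, in which a Cre recombinase expressed from the Foxp3 gene removes the floxed Hdac11 alleles only in cells that express Foxp3, and the WT group from C57BL6 mice. Each group had 3 arrays, which the labels call independent. They do not give the mice behind each sample, so p-values measure the spread between these samples. The methods give young adult mice backcrossed to C57BL/6. Since WT mice carried neither Cre nor floxed alleles, effects of Cre and of the deletion cannot be told apart.

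Values are log2 expression from Affymetrix Mouse430A arrays. The 6 arrays had medians of 6.74 to 6.77. Arrays correlated at 0.998 to 0.999 among HDAC11-/- samples and at 0.997 among WT samples, against 0.985 to 0.988 between genotypes (Pearson, across probe sets, which are not replicates). The brighter Hdac11 probe set had log2 levels of 6.36, 6.28 and 6.22 in HDAC11-/- Tregs, against 6.31, 6.36 and 6.53 in WT Tregs, with overlapping groups (log2 fold change -0.12, limma adjusted p = 0.222). The sources used here do not place its probes relative to the deleted exons, so this does not check the labels. A probe set is said to be at control level where every array of a genotype was at or below its own highest bacterial control (5.06 to 5.28 on the HDAC11-/- arrays and 5.27 to 5.48 on the WT arrays). Foxp3 was at control level in both genotypes, although the other 9 Treg markers measured, CD25 (Il2ra) among them, were above it. Of 10 Treg markers, limma and SAM (significance analysis of microarrays, the test named in the methods) both called 0. By limma adjusted p alone, 2 were higher (Ctla4, log2 fold change 0.50, and Capg, 0.23). In the lower direction 3 passed (Ikzf4, -0.48, Ikzf2, -0.35, and Izumo1r, -0.20). The counts at an unadjusted p under 0.05 were also 2 and 3. Of 8 T cell markers both tests also called 0, with 0 higher and 2 lower by adjusted p (Cd4, -0.32, and Lat, -0.15), and 0 and 3 at the unadjusted p.

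Lists of marker and response genes differed between the groups, and their part in the results below was not tested. Of 20 immediate early genes, which are transcribed within minutes of a stimulus, 13 were called higher (median log2 fold change 1.59). Those with the smallest adjusted p were Fos, Jun, Junb, Dusp1, Ppp1r15a, Zfp36, Fosb and Nr4a1. The mean log2 level of the 20, of which 2 were at control level in WT, was 10.59 to 10.60 in HDAC11-/- Tregs, against 8.62 to 8.71 in WT Tregs. Of 19 mitosis genes, 18 were called higher (median 2.04), and those with the smallest adjusted p were Bub1, Kif11, Nusap1, Birc5, Ccna2, Top2a, Kif20a and Ccnb2. The mean of the 19, of which 3 were at control level in WT and 1 in both, was 8.32 to 8.36 in HDAC11-/- Tregs, against 6.35 to 6.39 in WT Tregs. Markers of other cells differed as well. Of 9 B cell markers 6 were called lower (Blk, Ms4a1, Cd22, Cd79a, and Cr2 and Blnk, which were at control level in HDAC11-/- Tregs), with a mean of 5.89 to 5.94 in HDAC11-/- Tregs, against 6.80 to 6.87 in WT Tregs, and the B cell factor Pax5 was at control level in both genotypes. Of 10 dendritic cell markers 4 were called lower (H2-Aa, H2-Ab1, H2-Eb1 and Cd74, all of antigen presentation by MHC class II, which B cells express too), at a list mean of 7.49 to 7.50 in HDAC11-/- Tregs, against 7.98 to 8.03 in WT Tregs. By adjusted p alone, 6 of the 10 were lower, Itgax (log2 fold change -0.39) and Zbtb46 (-0.26) among them. The 2 that were higher were Bst2 (0.31) and Ccr9 (0.23), while Flt3 was at 0.11 and Xcr1 was at control level. Of 11 CD8 T and NK cell markers 4 were called lower (Fcer1g, Gzma, Ncr1 and Tyrobp, all known from NK cells), at a list mean of 7.23 to 7.27 in HDAC11-/- Tregs, against 7.69 to 7.79 in WT Tregs. By adjusted p alone, 7 of the 11 were lower, Klrk1 (-0.43), Klrd1 (-0.34) and Eomes (-0.30) among them. Only Cd8b1 was higher, at 0.42 (limma adjusted p = 0.00671). Cd8a was at -0.04 and Nkg7, of both cell types, at 0.0019. Of 12 macrophage and monocyte markers 5 were called higher (Lyz1, Vcam1, C1qa, C1qb and C1qc), at 5.10 to 5.25 in HDAC11-/- Tregs, against 4.68 to 4.83 in WT Tregs, but of those called C1qb was at control level in both genotypes and C1qa and C1qc in WT, so C1qb and C1qc have no measured fold and C1qa only a bound of at least 1.16-fold. In all, 5 of the 12, Cd14 and Itgam among them, were at control level in both genotypes and 3 more in WT only. In whole samples of this kind, fewer cells of a type and less RNA per cell cannot be told apart.

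A gene was called where its brightest probe set passed an adjusted p of 0.05 in limma, over all 22626 probe sets, and differed by at least 1.5-fold. By this rule 4 of 41 members rose in HDAC11-/- Tregs (9.76%, beside 3.46% of all genes) and 4 fell (9.76%, beside 3.72% of all genes). The p53 targets Plk2, Gadd45b and Gadd45a and the BH3-only gene Pmaip1 rose by 2.19-fold to 4.32-fold. The BH3-only gene Bik, the pro-survival gene Bcl2l2, the inflammatory caspase Casp1 and the p53 regulator Mdm4 fell by 1.51-fold to 2.07-fold. The other 33 members were not called. By adjusted p alone, 14 members, with Perp at control level among them, were higher (34.1%, beside 22.9% of all genes) and 10 lower (24.4%, beside 23.2% of all genes). All genes here include 3338 of 12393 at control level in both genotypes, against 1 of 41 members. The shares given in this report were not adjusted for this, nor for the choice of the members with earlier results of these data known.

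**Figure D1:**
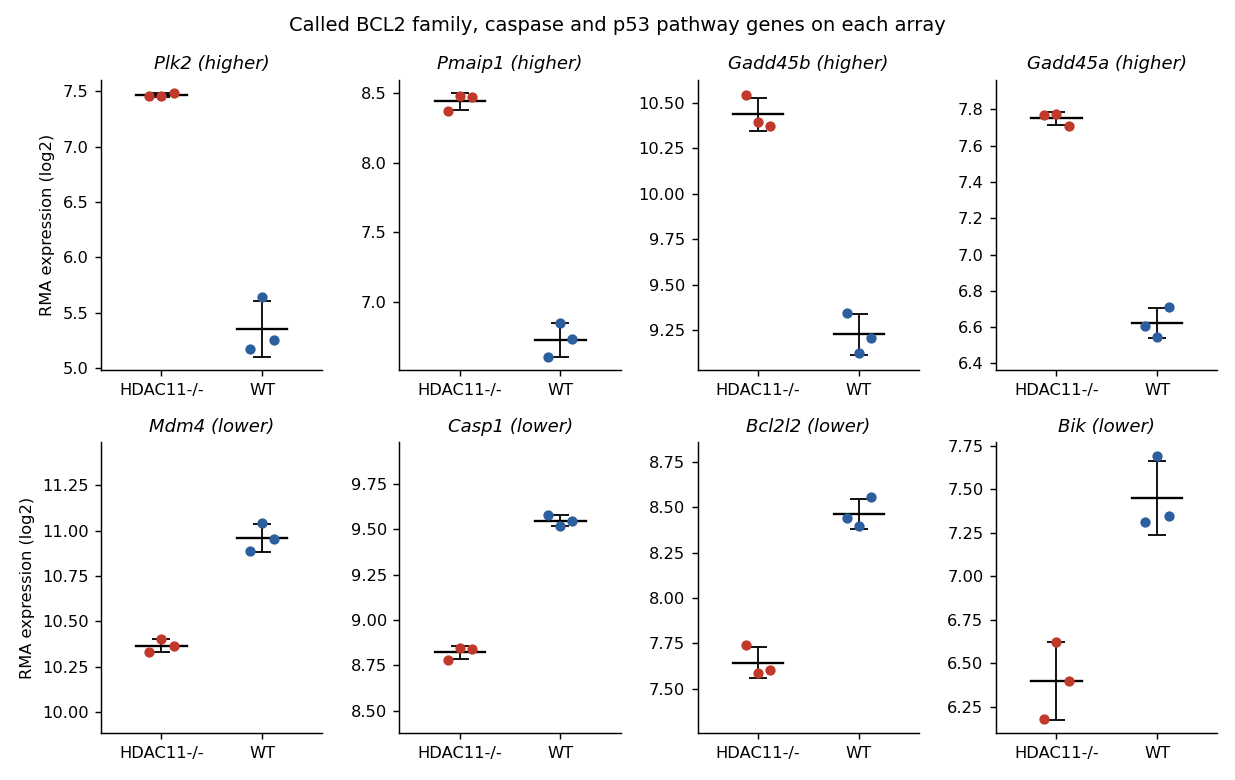
Log2 expression of the 8 called members on each array, for HDAC11-/- (red, left) and WT (blue, right) Tregs, each panel with its own axis (points, arrays; bars, mean ± SD, n = 3). The 3 arrays of each genotype are apart from those of the other in every panel, by the widest margin in Plk2.

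Among the 4 pro-survival BCL2 proteins, 1 fell and 3 were not called, beside 3.72% of all genes called lower and 3.46% higher. Bcl2l2, which encodes BCL-W (probe set 1423572_at), had log2 levels of 7.74, 7.59 and 7.60 in HDAC11-/- Tregs, against 8.44, 8.40 and 8.56 in WT Tregs. All HDAC11-/- arrays lay below all WT arrays, and the fall was 1.77-fold (log2 fold change -0.82, SE 0.07, limma adjusted p = 0.000206). Its other 3 probe sets were not called. Of these, 1 was above control level, with a log2 fold change of -0.21 (adjusted p = 0.195), and the other two were at control level in both genotypes and give no difference.

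Bcl2, the founding member of the family, had log2 levels of 8.12, 8.15 and 8.14 in HDAC11-/- Tregs, against 8.65, 8.42 and 8.45 in WT Tregs. The groups did not overlap, but the log2 fold change of -0.38 (SE 0.07, limma adjusted p = 0.00519) was under 1.5-fold. Bcl2l1, which encodes BCL-XL, had levels of 9.40, 9.42 and 9.58 in HDAC11-/- Tregs, against 9.30, 9.22 and 9.34 in WT Tregs, a log2 fold change of 0.18 (95% interval 0.03 to 0.34) that missed the threshold (limma adjusted p = 0.0590).

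Mcl1 had levels of 12.55, 12.57 and 12.57 in HDAC11-/- Tregs, against 12.49, 12.49 and 12.47 in WT Tregs (log2 fold change 0.08, 95% interval -0.02 to 0.18, limma adjusted p = 0.145). The groups did not overlap. The direction varied among its 6 probe sets. Of these, 4 gave log2 fold changes of -0.33 to -0.22, all past the adjusted p, and the dimmest gave 0.19 (limma adjusted p = 0.0153). Every one of the 6 was under 1.5-fold.

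The inhibitors of caspases are the IAP genes Xiap, Birc2 and Birc3 and the FLIP gene Cflar, whose protein competes with caspase-8 at death receptors. None of the 4 was called by its brightest probe set in limma or SAM, beside 3.46% of all genes called higher by limma and 3.72% lower. Of the 4, 3 had an unadjusted p under 0.05, all in the lower direction. Birc2 (log2 fold change -0.26, limma adjusted p = 0.00810), Birc3 (-0.17, adjusted p = 0.0153) and Cflar (-0.17, adjusted p = 0.0317) passed the adjusted p only, and Xiap was at 0.02 (adjusted p = 0.791). Dimmer probe sets of Birc3 and Cflar were called lower. That of Birc3 (1425223_at) had log2 levels of 7.57, 7.11 and 7.02 in HDAC11-/- Tregs, against 8.38, 8.22 and 8.25 in WT Tregs (log2 fold change -1.05, limma adjusted p = 0.00148). The called probe set of Cflar (1425687_at) had 6.59, 6.44 and 6.04 in HDAC11-/- Tregs, against 7.52, 7.20 and 6.99 in WT Tregs (-0.88, adjusted p = 0.00734). The groups did not overlap for either, whereas another Cflar probe set gave 0.26 (adjusted p = 0.00448), so the probe sets of Cflar did not share a direction.

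Of 6 BH3-only genes, 1 rose, 1 fell and 4 were not called, beside 3.46% of all genes called higher and 3.72% lower. Pmaip1, which encodes NOXA, an antagonist of MCL1 (probe set 1418203_at), had log2 levels of 8.37, 8.48 and 8.47 in HDAC11-/- Tregs, against 6.61, 6.85 and 6.74 in WT Tregs. Its rise was 3.28-fold (log2 fold change 1.71, SE 0.07, limma adjusted p = 1.55e-05), rank 60 from the top among the 12393 genes, and it rests on a single probe set.

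Bik, an activator of apoptosis studied mostly in B cells and epithelium (probe set 1449836_x_at), had log2 levels of 6.18, 6.62 and 6.39 in HDAC11-/- Tregs, against 7.31, 7.69 and 7.35 in WT Tregs. It fell by 2.07-fold (log2 fold change -1.05, SE 0.14, limma adjusted p = 0.00151), without overlap of the groups. All 3 of its probe sets were called lower, and the suffix _x_at of the brightest marks probes that can match other transcripts. A second, without that suffix, gave -1.43 (adjusted p = 3.11e-05), with levels of 5.18, 5.12 and 5.19 in HDAC11-/- Tregs, against 6.71, 6.62 and 6.45 in WT Tregs. Its HDAC11-/- level was near that of the controls. Replicate 1 was below the highest bacterial control of its array (5.28), and replicates 2 and 3 were just above theirs (5.06 and 5.09). The dimmest was at control level in HDAC11-/- Tregs, at 4.85, 5.05 and 4.96, against 5.53, 5.93 and 6.04 in WT Tregs, and gives a bound of at least 1.62-fold lower (limma adjusted p = 0.00228). The B cell markers moved in the same direction as Bik (mean 5.89 to 5.94 in HDAC11-/- Tregs, against 6.80 to 6.87 in WT Tregs), and their part in its fall was not tested.

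Bcl2l11 differed by probe set. Its brightest (1435448_at) had log2 levels of 10.18, 10.11 and 10.12 in HDAC11-/- Tregs, against 10.06, 10.11 and 10.12 in WT Tregs, with overlapping groups (log2 fold change 0.04, 95% interval -0.07 to 0.15, limma adjusted p = 0.537). The second (1456005_a_at), which a choice by brightness on the WT arrays alone would take, was called lower, at 9.74, 9.67 and 9.62 in HDAC11-/- Tregs, against 10.43, 10.22 and 10.27 in WT Tregs (-0.63, adjusted p = 0.000596). The dimmest (1426334_a_at) was called higher (adjusted p = 0.00863), at 5.41, 5.43 and 5.46 in HDAC11-/- Tregs against 4.58, 4.52 and 5.10 in WT Tregs, where it was at control level, so the difference is bounded at no less than 1.03-fold. The remaining pair gave 0.14 each. No single direction can therefore be given for the gene.

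The other BH3-only genes were Bid, which links death receptors to mitochondria, at a log2 fold change of 0.26 (limma adjusted p = 0.00298), Bbc3, which encodes PUMA, at 0.21 (adjusted p = 0.0799), and Bad, which growth factor signals hold inactive, at 0.01 (adjusted p = 0.898). A dimmer probe set of each of Bid and Bad gave 0.40 and 0.31, both past the adjusted p and under 1.5-fold.

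The effector Bak1 came close to the fold threshold. Its log2 levels were 7.78, 7.82 and 7.94 in HDAC11-/- Tregs, against 7.40, 7.15 and 7.32 in WT Tregs, and the groups did not overlap. The log2 fold change of 0.56 (SE 0.08, limma adjusted p = 0.00191), or 1.47-fold, was just under the threshold. A dimmer probe set was at control level in WT Tregs and gives no fold. Without WT replicate 1 the value was 0.62, and without HDAC11-/- replicate 1 it was 0.59, and both were called.

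Downstream of the mitochondrial pore, Cycs (cytochrome c) had a log2 fold change of 0.43 (limma adjusted p = 0.00104) and 0.46 and 0.58 at its other probe sets, and Apaf1, the scaffold of the apoptosome, had 0.31 (adjusted p = 0.00191) and 0.50. All 5 of these probe sets passed the adjusted p without reaching 1.5-fold, and no groups overlapped. Diablo, whose protein SMAC blocks the IAPs, gave -0.10 (adjusted p = 0.183), while its dimmer probe set (1425768_at) was called lower, with 6.61, 6.39 and 6.30 in HDAC11-/- Tregs, against 7.46, 7.14 and 7.30 in WT Tregs (-0.87, adjusted p = 0.00109). The death receptor adaptor Fadd gave 0.22 (adjusted p = 0.0272).

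Of the 6 caspases, Casp1 fell and none rose, in limma or SAM (0 had an unadjusted p under 0.05 in the higher direction). By limma, 3.72% of all genes were called lower and 3.46% higher. Casp1 activates interleukin-1 beta within inflammasomes (probe set 1449265_at), and had log2 levels of 8.78, 8.85 and 8.84 in HDAC11-/- Tregs, against 9.58, 9.52 and 9.54 in WT Tregs. The groups were well apart, and the fall was 1.65-fold (log2 fold change -0.73, SE 0.05, limma adjusted p = 7.30e-05). Casp4, the other inflammatory caspase of the list and a sensor of bacterial lipopolysaccharide, gave -0.50 (adjusted p = 0.000322), with 9.57, 9.61 and 9.54 in HDAC11-/- Tregs against 10.11, 10.05 and 10.05 in WT Tregs, which is under 1.5-fold. The initiators Casp2 (0.04), Casp8 (-0.05) and Casp9 (0.03) and the executioner Casp6 (0.08) did not pass the adjusted p (0.205 to 0.715). The mean of the dendritic cell list was lower too (7.49 to 7.50 in HDAC11-/- Tregs, against 7.98 to 8.03 in WT Tregs). So was that of the CD8 T and NK cell list (7.23 to 7.27 in HDAC11-/- Tregs, against 7.69 to 7.79 in WT Tregs). In these lists Cd8b1, Bst2 and Ccr9 passed the adjusted p in the higher direction. The mean of the macrophage and monocyte list was higher (5.10 to 5.25 in HDAC11-/- Tregs, against 4.68 to 4.83 in WT Tregs). Of its 12 markers, 5 were at control level in both genotypes. The part of these cells in the fall of Casp1 was not tested.

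**Figure D2:**
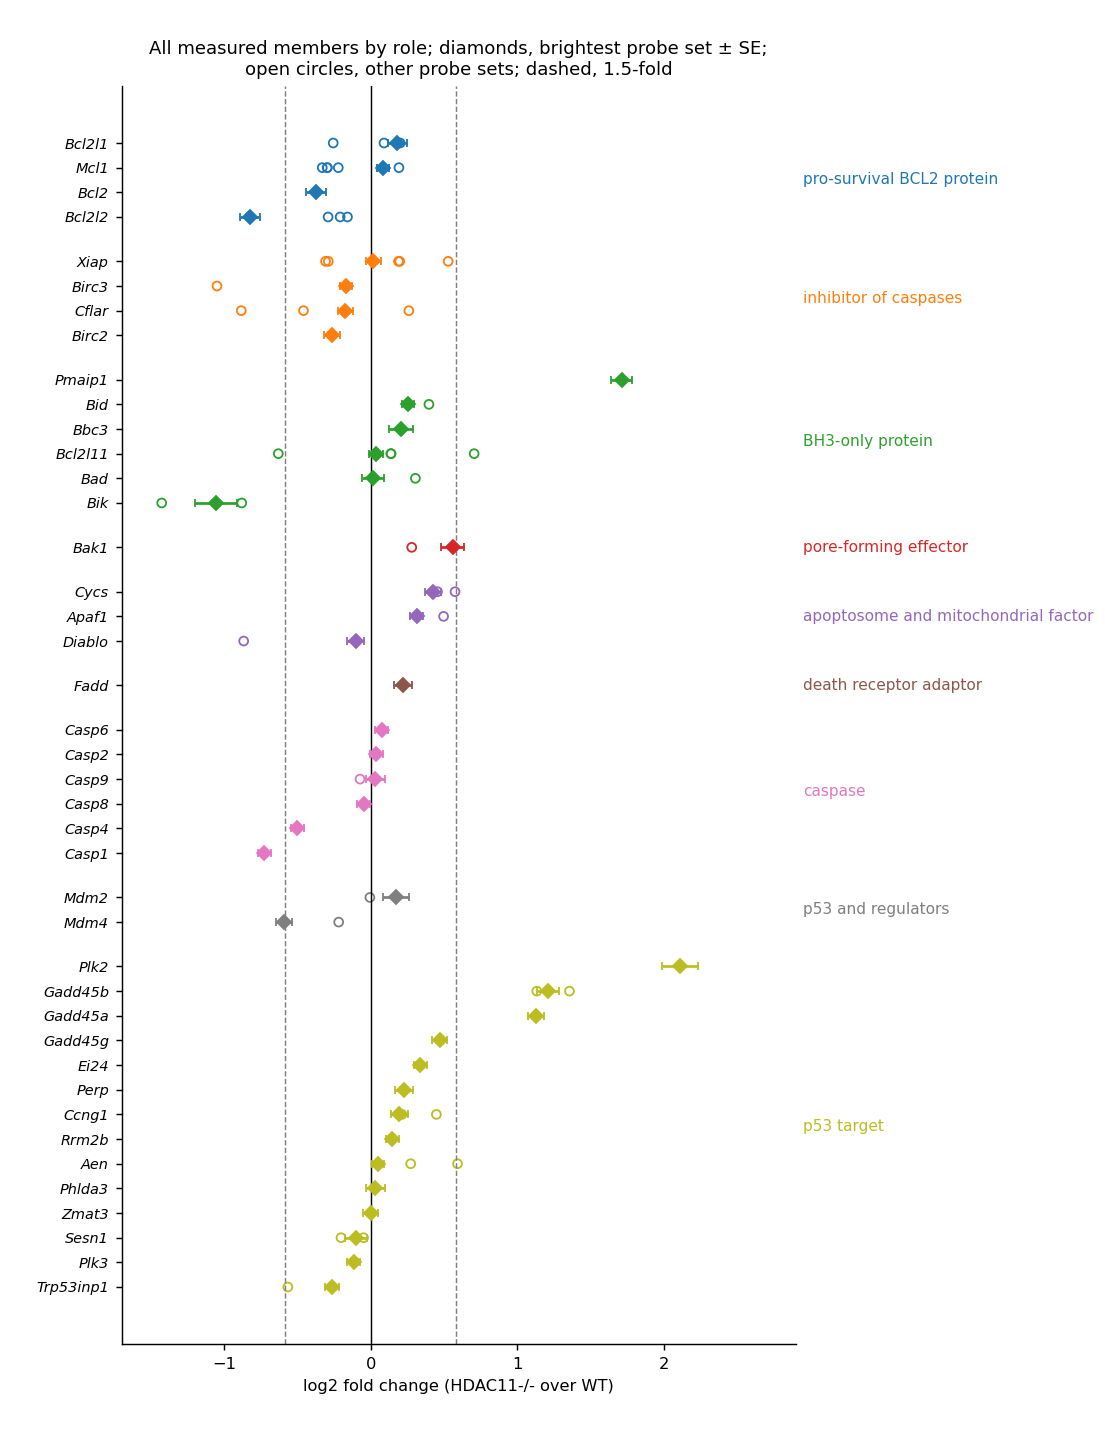
Log2 fold change of HDAC11-/- over WT Tregs for all 41 measured members, grouped by role (diamonds, brightest probe set with its SE, n = 3 arrays per genotype; open circles, other probe sets of the same gene, those at control level included; dashed lines, 1.5-fold). Most members lie between the dashed lines, and Bcl2l11, Birc3, Cflar, Diablo and Aen have open circles beyond a line that their diamond does not reach. Perp was at control level in both genotypes.

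Mdm4, which binds and restrains p53 (probe set 1460542_s_at), had log2 levels of 10.33, 10.40 and 10.36 in HDAC11-/- Tregs, against 10.89, 11.04 and 10.95 in WT Tregs. It fell by 1.51-fold, only just past the fold threshold (log2 fold change -0.59, SE 0.06, limma adjusted p = 0.000339), and the call was lost without WT replicate 2 (-0.55) or without HDAC11-/- replicate 1 (-0.58). The suffix _s_at marks probes shared by more than a single transcript, and its other probe set, without a suffix, gave -0.22 (adjusted p = 0.0259). Mdm2, the ubiquitin ligase of p53 and itself a p53 target, gave 0.17 (adjusted p = 0.154) and was not called.

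Of 14 p53 targets, 3 rose, 0 fell by limma or SAM (2 had an unadjusted p under 0.05 in the lower direction) and 11 were not called. Among all genes 3.46% were called higher by limma and 3.72% lower. Plk2, a polo-like kinase also known as a gene induced by serum and synaptic activity (probe set 1427005_at), had log2 levels of 7.46, 7.45 and 7.49 in HDAC11-/- Tregs, against 5.17, 5.64 and 5.25 in WT Tregs. Its rise of 4.32-fold (log2 fold change 2.11, SE 0.12, limma adjusted p = 4.98e-05) was the largest measured among the 41 members, but the WT level was near that of the controls. The WT replicate 1 value of 5.17 was below the highest bacterial control of that array (5.43) and that of replicate 3 (5.25) just under its own (5.27), while replicate 2 was above. With these 2 arrays raised to their highest bacterial control, a choice made after seeing the data, the rise was 4.05-fold (log2 difference 2.02).

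Gadd45b and Gadd45a encode small proteins of growth arrest, DNA repair and stress kinase signalling, and Gadd45b is also induced by NF-kB. Gadd45b (probe set 1450971_at) had log2 levels of 10.54, 10.40 and 10.37 in HDAC11-/- Tregs, against 9.34, 9.13 and 9.21 in WT Tregs, a 2.32-fold rise (log2 fold change 1.21, SE 0.08, limma adjusted p = 7.20e-05). All 3 of its probe sets were called, at 1.13 to 1.36. Gadd45a (probe set 1449519_at) had 7.77, 7.77 and 7.71 in HDAC11-/- Tregs, against 6.61, 6.55 and 6.71 in WT Tregs, a 2.19-fold rise (1.13, SE 0.06, adjusted p = 3.18e-05). The groups did not overlap at any of these 4 probe sets. The third member of the family, Gadd45g, gave 0.47 (adjusted p = 0.000539), under 1.5-fold. Plk2, Pmaip1, Gadd45b and Gadd45a moved in the same direction as the immediate early genes (mean 10.59 to 10.60 in HDAC11-/- Tregs, against 8.62 to 8.71 in WT Tregs) and the mitosis genes (mean 8.32 to 8.36 in HDAC11-/- Tregs, against 6.35 to 6.39 in WT Tregs), and the part of either in their rise was not tested.

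The promoters of the 3 called p53 targets are shown because these genes moved together. Each runs from 250 bases before to 50 bases after the RefSeq start of the gene in GRCm38.p6, on the strand of the gene, at chr13:110394794-110395093 (plus strand) for Plk2, chr6:67037358-67037657 (minus strand) for Gadd45a and chr10:80929841-80930140 (plus strand) for Gadd45b. Capitals mark the motifs found on either strand, of those searched.
Plk2: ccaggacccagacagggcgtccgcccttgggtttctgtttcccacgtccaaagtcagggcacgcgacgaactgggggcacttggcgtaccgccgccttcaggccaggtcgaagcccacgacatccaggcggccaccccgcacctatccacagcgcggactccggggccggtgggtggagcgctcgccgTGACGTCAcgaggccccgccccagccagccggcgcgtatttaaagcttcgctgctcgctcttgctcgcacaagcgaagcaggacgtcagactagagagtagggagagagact
Gadd45a: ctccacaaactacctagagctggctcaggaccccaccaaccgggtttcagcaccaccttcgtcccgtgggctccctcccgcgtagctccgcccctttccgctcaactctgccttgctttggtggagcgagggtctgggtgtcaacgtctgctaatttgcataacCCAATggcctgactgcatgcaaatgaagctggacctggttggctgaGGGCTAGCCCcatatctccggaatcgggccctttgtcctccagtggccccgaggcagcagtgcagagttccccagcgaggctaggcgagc
Gadd45b: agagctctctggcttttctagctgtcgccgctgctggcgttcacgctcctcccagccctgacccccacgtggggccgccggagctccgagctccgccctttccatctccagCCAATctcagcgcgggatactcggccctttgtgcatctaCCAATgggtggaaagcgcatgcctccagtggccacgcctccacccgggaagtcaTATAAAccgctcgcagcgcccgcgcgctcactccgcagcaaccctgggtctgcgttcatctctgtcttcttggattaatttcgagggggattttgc
The capitals are a cyclic AMP response element, TGACGTCA, in Plk2 (62 bases before the start), a CCAAT box and a p53 half-site in Gadd45a (86 and 40 bases before) and CCAAT boxes and a TATA box, TATAAA, in Gadd45b (139, 100 and 46 bases before).

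The table of promoters held 35 of the 41 members, and Bik, Pmaip1, Trp53inp1, Zmat3, Perp and Rrm2b had no entry. The 5 motifs were searched on both strands of these windows and of all 27025 genes. The p53 half-site was in 7 of the 35 members (Aen, Birc2, Ccng1, Ei24, Gadd45a, Mdm2 and Sesn1), beside 9.55% of all genes, and of these 7 only Gadd45a was called by its brightest probe set. The CCAAT box was in 15, beside 41.1% of all genes, and TATAAA in 4, beside 15.7%. TGACGTCA was in Plk2, Birc2 and Cycs, beside 2.03%, and the AP-1 motif TGANTCA in Mdm4 alone, beside 8.97%. A match describes the letters of the window and not a bound site.

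The 11 p53 targets that were not called had log2 fold changes from -0.27 to 0.47. More of them, with Perp at control level included, passed the adjusted p in the higher direction than in the lower. Of all genes, 22.9% were higher and 23.2% lower by adjusted p. Among these targets Gadd45g, described above, had the highest log2 fold change. Ei24, an endoplasmic reticulum protein of cell death (log2 fold change 0.34, limma adjusted p = 0.00148), Ccng1, cyclin G1 (0.20, adjusted p = 0.0314), and Rrm2b, the p53-induced subunit of ribonucleotide reductase (0.15, adjusted p = 0.0367), passed the adjusted p only, and a second probe set of Ccng1 gave 0.45. Perp, a desmosomal effector of p53, gave 0.23 but was at control level in both genotypes, so no fold is given. Trp53inp1, which acts in stress and autophagy, was the only target to pass the adjusted p in the lower direction, at -0.27 (adjusted p = 0.00463), with -0.57 at its second probe set. Aen, a nuclease of apoptosis, gave 0.05 (adjusted p = 0.381), but its second probe set (1450506_a_at) was called higher, with 7.13, 7.24 and 7.30 in HDAC11-/- Tregs, against 6.60, 6.76 and 6.54 in WT Tregs (0.59, adjusted p = 0.00118). Phlda3, an inhibitor of Akt (0.03), Zmat3, an RNA-binding protein (-0.00087), Sesn1, a sestrin of nutrient and redox sensing (-0.10), and Plk3, a stress-responsive kinase (-0.12), did not pass the adjusted p. These values are on the deposited scale. With the arrays scaled on reference genes, Gadd45g and Ei24 passed in the higher direction and Trp53inp1, Sesn1 and Plk3 in the lower. On that scale 13.4% of all genes passed in the higher direction and 42.6% in the lower.

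**Figure D3:**
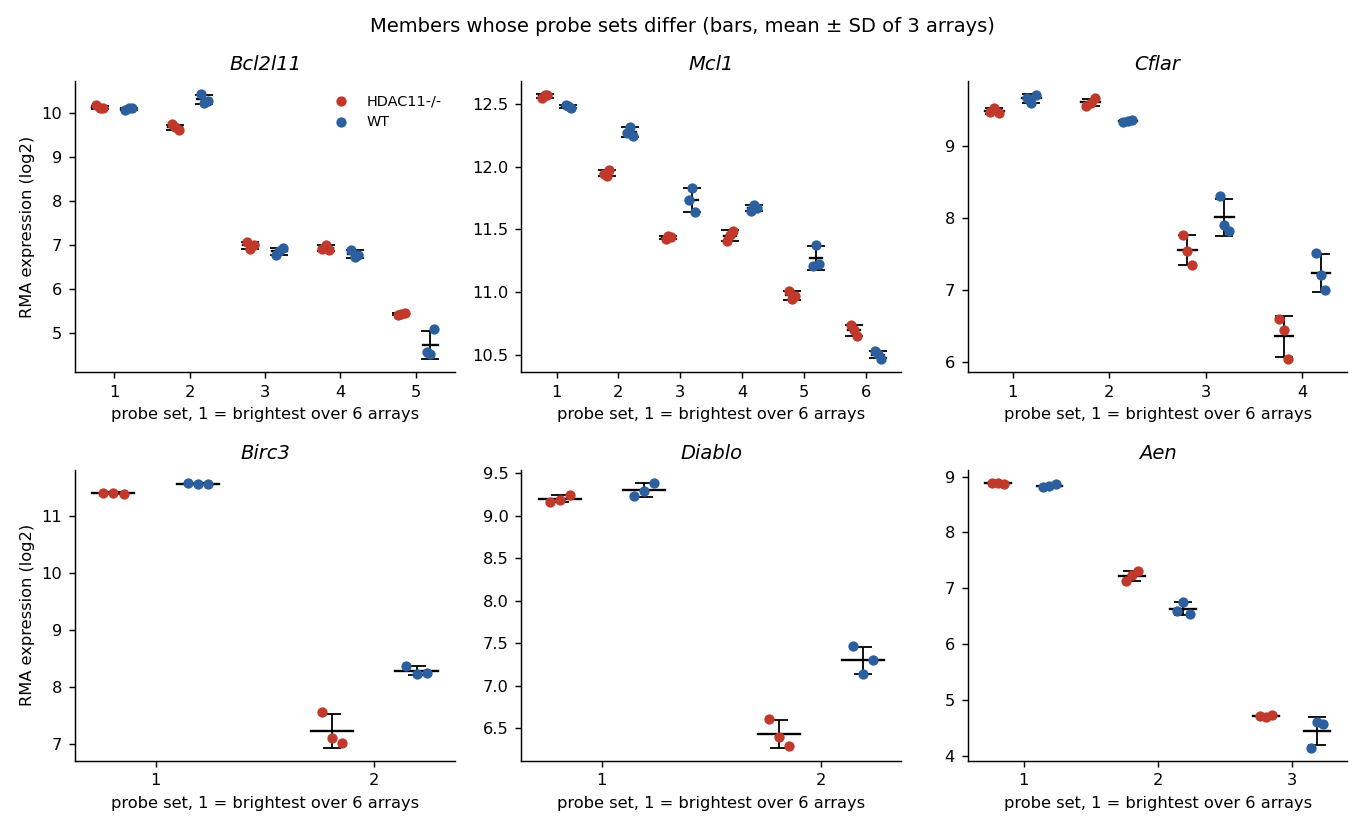
Log2 expression of 6 members whose probe sets differed from each other, in HDAC11-/- (red, left) and WT (blue, right) Tregs, with probe sets ordered by brightness (points, arrays; bars, mean ± SD, n = 3). The brightest Bcl2l11 probe set overlaps between the genotypes, the second is lower in HDAC11-/- Tregs and the dimmest higher, with WT at control level. The dimmest Aen probe set is at control level in both genotypes.

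Over all probe sets of the members, 8 of 86 were called higher (beside 3.87% of all probe sets) and 10 lower (beside 5.03%), of which 1 in each direction, the dimmest of Bcl2l11 and of Bik, had a genotype at control level. By any probe set, 6 members were called higher (beside 5.31% of all genes) and 8 lower (beside 6.66%), with Bcl2l11 in both counts. The 5 members called only through a dimmer probe set were Bcl2l11, Birc3, Cflar, Diablo and Aen. The groups did not overlap, with HDAC11-/- above, for 20 members (48.8%, beside 28.2% of all genes), and with HDAC11-/- below for 11 (26.8%, beside 29.6%).

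The question of whether pro-survival and pro-death genes differed in direction was described by counts and medians. The 8 pro-survival genes, which join the 4 BCL2 proteins and the 4 inhibitors of caspases, had a median log2 fold change of -0.17, with 5 past the adjusted p in the lower direction and 0 in the higher, beside 23.2% of all genes in the lower direction and 22.9% in the higher. The 11 measured pro-death genes had a median of 0.22, with 6 past it in the higher direction and 1, Bik, in the lower. The 6 caspases had a median of -0.01 (0 higher, 2 lower) and the 14 p53 targets 0.17 (8 higher, Perp at control level among them, and 1 lower), beside a median of -0.04 over all genes. These shifts were mostly under 1.5-fold: 0 of 8 pro-survival genes (limma and SAM, with 1 at an unadjusted p under 0.05) and 1 of 11 pro-death genes rose, and 1 of each set fell. Of all genes, 3.46% were called higher and 3.72% lower. These counts are by the brightest probe set. Dimmer probe sets of the pro-death genes Bcl2l11 (-0.63) and Diablo (-0.87) were called lower. So were those of the pro-survival genes Birc3 (-1.05) and Cflar (-0.88). The dimmest Bcl2l11 probe set, at control level in WT Tregs, was called higher. When the arrays were scaled on reference genes, which lowered the median of all genes by 0.13, the medians were -0.31 for pro-survival genes, 0.09 for pro-death genes, -0.14 for caspases and 0.04 for p53 targets. On that scale 5 p53 targets passed the adjusted p in the higher direction and 3 in the lower, beside 13.4% and 42.6% of all genes. Perp, Rrm2b and Ccng1 no longer passed, and Sesn1 and Plk3 passed in the lower direction. Pro-death genes had 5 higher and 2 lower, and pro-survival genes 0 and 5.

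**Figure D4:**
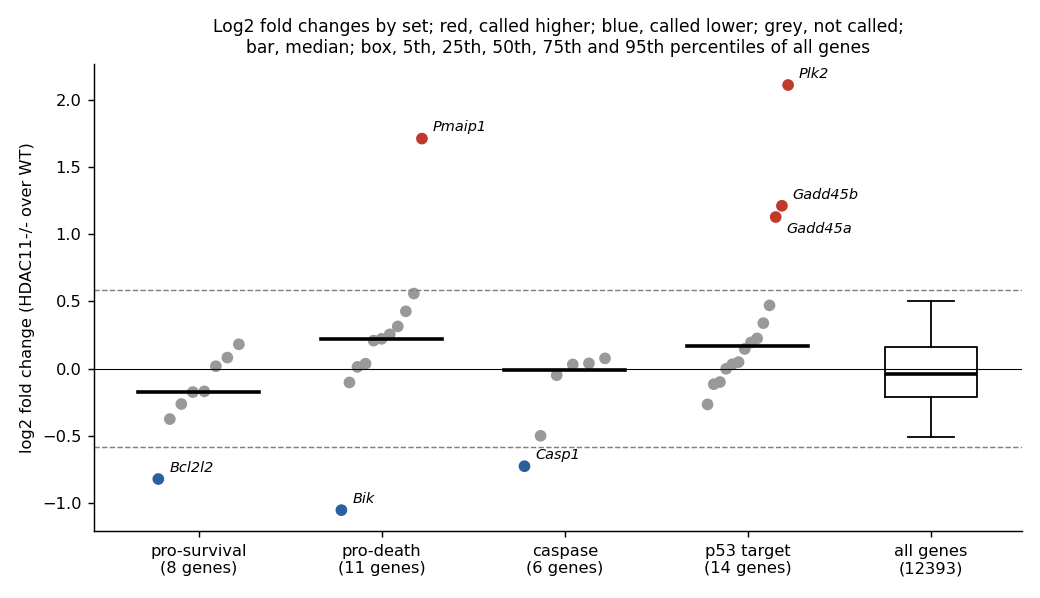
Log2 fold change of HDAC11-/- over WT Tregs for each gene of 4 sets (points; red, called higher; blue, called lower; grey, not called; bar, median), beside all 12393 genes (box and whiskers, 5th to 95th percentile). The median bar is lowest for the pro-survival genes (-0.17) and highest for the pro-death genes (0.22). The called members named in the plot lie outside the whiskers (-0.51 to 0.51), as any gene past the 1.5-fold threshold must. Mdm4 and Mdm2 belong to none of the 4 sets.

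Other genes of the same pathways were counted by the same rule, by which 3.46% of all genes were called higher and 3.72% lower. Of 18 further apoptosis genes measured, 1 was called higher and 0 lower by limma and by SAM (median log2 fold change 0.06), and 4 had an unadjusted p under 0.05 in the lower direction. The one was Birc5, or survivin, an IAP gene that also acts in mitosis, at 2.76 (limma adjusted p = 1.78e-06), and it is in the list of mitosis genes too. Of 12 genes of the death receptor pathway, Tnfaip3, the NF-kB feedback inhibitor A20, was the only one called, at 2.37 (adjusted p = 1.67e-06), and the median was 0.03. Of 18 further p53 targets 0 were called by limma or SAM, and the median was 0.04. By limma adjusted p 6 were higher, Tnfrsf10b at control level in both genotypes among them, and 7 lower. The counts at an unadjusted p under 0.05 were the same. Among the 18 was Cdkn1a, the cell cycle inhibitor p21 and a standard p53 target, at 0.14 (adjusted p = 0.0952). Against these, 3 of the 14 listed p53 targets rose. By the brightest probe set, calls over both lists were limited to Plk2, Gadd45a and Gadd45b, while a dimmer probe set of Aen was called higher. The BH3-only genes, several of which p53 induces, were counted with the pro-death genes, and Pmaip1 among them rose.

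Plk2, Pmaip1, Gadd45b, Gadd45a and Bik were called under each of 19 alternative settings of the test, scaling, filter, probe set and arrays. Not every setting could remove a call. Plk2, Pmaip1 and Gadd45a have a single probe set, so the choices of probe set could not alter their log2 fold changes. Dropping the fold threshold cannot remove the call of any gene. Log2 fold changes were 1.98 to 2.26 for Plk2, 1.58 to 1.77 for Pmaip1, 1.08 to 1.36 for Gadd45b, 0.99 to 1.17 for Gadd45a and -1.43 to -0.93 for Bik. The Bik range leaves out the choice of probe sets without a suffix, which takes the probe set at control level in HDAC11-/- Tregs. Its end at -1.43 is from a probe set near control level in HDAC11-/- Tregs. Casp1 lost its call only under a 2-fold threshold. Bcl2l2 lost it there and when all probe sets of a gene were averaged, at -0.37, a mean that holds its probe sets at control level. Mdm4 lost it in 6 of the 19, with log2 fold changes from -0.73 to -0.22 over the settings.

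**Figure D5:**
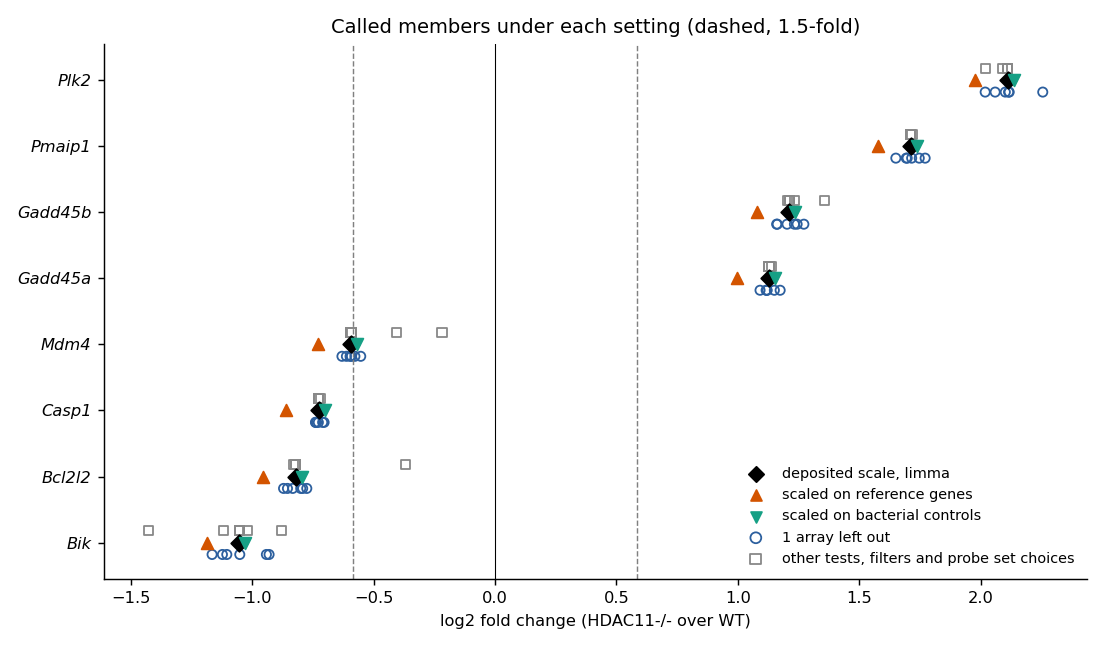
Log2 fold change of HDAC11-/- over WT Tregs for the 8 called members under each setting (diamonds, deposited scale; triangles, arrays rescaled; circles, 1 array left out; squares, other tests, filters and probe set choices; dashed lines, 1.5-fold). Mdm4 lies close to the dashed line under most settings and well inside it at 2 of them (-0.41 and -0.22), Bcl2l2 is inside it once (-0.37), and the 4 genes that rose stay beyond it. The Bik square nearest the line is the probe set at control level in HDAC11-/- Tregs.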

How the data were processed

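CD4+CD25+ Tregs of 3 HDAC11-/- and 3 WT samples were compared. Per the methods, the authors amplified and biotin-labelled RNA, hybridized Mouse430A arrays and normalized them by RMA, and the deposited values used here are log2 expression per probe set. The probe definition was not given in the sources used here. Of 22671 probe sets, 45 controls were left out, and 22626 were tested with limma 3.58.1 (R 4.3.3), genotype as the only term, and Benjamini-Hochberg adjustment. The annotation gave 20380 probe sets 1 symbol, 691 several and 1555 none. A gene is its brightest probe set over the 6 arrays. A call needs an adjusted p under 0.05 and 1.5-fold, the thresholds the methods give for SAM. Where all arrays of a group lay at or below the highest of 27 bacterial control probe sets of the same array, only a bound is given. Values per array are given for members with a called probe set and for fixed members of the BCL2 family. The members and lists were chosen with earlier results of these data known. The scripts were tested on simulated data. Deviations of same-numbered arrays correlated at 0.23, -0.02 and 0.16, against -0.21 to 0.06 for the other combinations. Whether the numbers pair samples cannot be told from these values. The number of arrays limits the precision.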

Additional observations from a re-analysis of the deposited data

How the results depend on the processing

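The 19 alternatives kept the count of members at 4 higher and 4 lower, or within 1.5 times of it, except where a threshold or the choice of probe set was altered. With no fold threshold 14 were higher and 10 lower, at 2-fold 4 were higher and 1 (Bik) lower, and by the probe set with the smallest adjusted p 7 were lower. SAM (20 labelings of the arrays) gave 4 and 4. With the replicate number as a block the counts were also 4 and 4, and 430 and 462 over all genes. The correlations of deviations between same-numbered arrays were 0.23, -0.02 and 0.16, and whether the numbers pair samples is not known. Leaving out 1 array gave 4 to 5 members higher and 3 to 4 lower, with medians of -0.19 to -0.16 (pro-survival), 0.20 to 0.26 (pro-death), -0.033 to 0.0055 (caspases) and 0.16 to 0.20 (p53 targets).

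Scaling on 11 reference genes, of which 4 passed the adjusted p in the higher direction and 0 in the lower (median 0.08), gave 278 genes higher and 844 lower, or 24.8% higher of those called, against 429 and 461, or 48.2%, on the deposited scale. Set medians were then -0.31 (pro-survival), 0.089 (pro-death), -0.14 (caspases) and 0.037 (p53 targets), Casp4 was called at -0.63, and the sign turned for Bcl2l11 (-0.10), Mcl1 (-0.051), Bad (-0.12), Casp2 (-0.094), Casp6 (-0.057), Casp9 (-0.10), Xiap (-0.12), Phlda3 (-0.10) and Aen (-0.085). Scaling on bacterial controls, which lie at background, gave 53.3% higher of those called and medians of -0.15 (pro-survival) and 0.016 (caspases), with Zmat3 at 0.024 and Mdm4 at -0.57, no longer called. By the probe set with the smallest adjusted p the medians were -0.30 (pro-survival), -0.061 (caspases) and 0.28 (p53 targets), with Bcl2l1 at -0.26 from a probe set at control level in both genotypes, which gives no direction for the gene, and signs turned for Bcl2l11 (-0.63), Mcl1 (-0.33), Casp9 (-0.072) and Cflar (0.26). The mean of all probe sets gave -0.29, -0.035 and 0.26 for the same sets, turned Mcl1 (-0.14) and Casp9 (-0.021), and left Mdm4 (-0.41) and Bcl2l2 (-0.37) uncalled. Probe sets without a suffix gave a pro-survival median of -0.22 and Mdm4 at -0.22. Bcl2l11 was at -0.63, and called, by the probe set brightest in WT.

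Zmat3 turned with array weights (0.011). With 1 array left out, values ranged over 0 for Zmat3 (-0.029 to 0.038, turned without HDAC11-/- replicate 1 and without WT replicate 3), Bad (-0.043 to 0.069, without HDAC11-/- replicate 2 and without WT replicate 1), Casp9 (-0.012 to 0.091, without WT replicate 2), Xiap (-0.0065 to 0.047, without HDAC11-/- replicate 2 and without WT replicate 3) and Phlda3 (-0.013 to 0.079, without WT replicate 3). None of these was called on either side, and the cause was not tested. Probe sets at the level of the bacterial controls give no level of a gene.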
